A study of Mus musculus with 20 samples.

Results

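Neural differentiation of mouse embryonic stem cells was compared between WT cells and cells labelled TKO at D4, an early neural stage. The comparison used every library the labels place in these groups, 2 of WT and 2 of TKO, which are 4 of the 20 libraries of the series. Both genotypes are of the embryonic stem cell line ES-E14TG2a. The cells had been kept on gelatin in serum medium with leukemia inhibitory factor, which holds mouse stem cells in pluripotency, and were then moved onto laminin in N2B27, a medium without serum in which they turn to neural cells. The labels do not say what TKO stands for, how it was made or whether it is a single clone, so a difference between the genotypes and a difference between these lines cannot be told apart. The other groups of the series, used here only to set the D4 difference beside others, are WT and TKO at D0 (stem cells), D2, D6 and D8, with 2 libraries each.

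DNA methylation at CpG sites is copied onto newly made DNA by Dnmt1, which Uhrf1 guides to the replication fork, and is set anew by Dnmt3a and Dnmt3b, while the Tet enzymes oxidise it. The mark is known for holding germline gene promoters silent in somatic cells, for marking a single parental copy of imprinted genes and for restraining many repeats. In neural medium, stem cells lose the factors of pluripotency, switch on neuroectoderm factors such as Sox1 and Pax6, and then take on a position along the axis of the neural tube, read out by homeobox genes from forebrain to hindbrain.

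The D4 libraries held 34309338 and 33088055 counts in WT and 35016995 and 30297321 in TKO. Levels are given as CPM, counts scaled to a common library size of 1000000, always with replicate 1 before replicate 2. A gene was called higher or lower in TKO at an adjusted p under 0.05 (edgeR quasi-likelihood test, Benjamini-Hochberg adjustment over 18555 genes), and its log2 fold change is given ± SE. At D4, 2804 genes were higher (15.1%) and 2455 lower (13.2%), together 28.3% of the genes tested. Most changes were small, since 489 genes (2.64%) were at least 4-fold higher and 96 (0.517%) at least 4-fold lower. In the same fit, the share called in either direction was 39.3% at D0, 35.3% at D2, 41.3% at D6 and 67.5% at D8, so D4 had the lowest share of the 5 days. With 1 of the 4 D4 libraries left out, the number of lower genes was 1617 without WT replicate 1, 1526 without TKO replicate 1 and 1415 without TKO replicate 2.

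**Figure D1:**
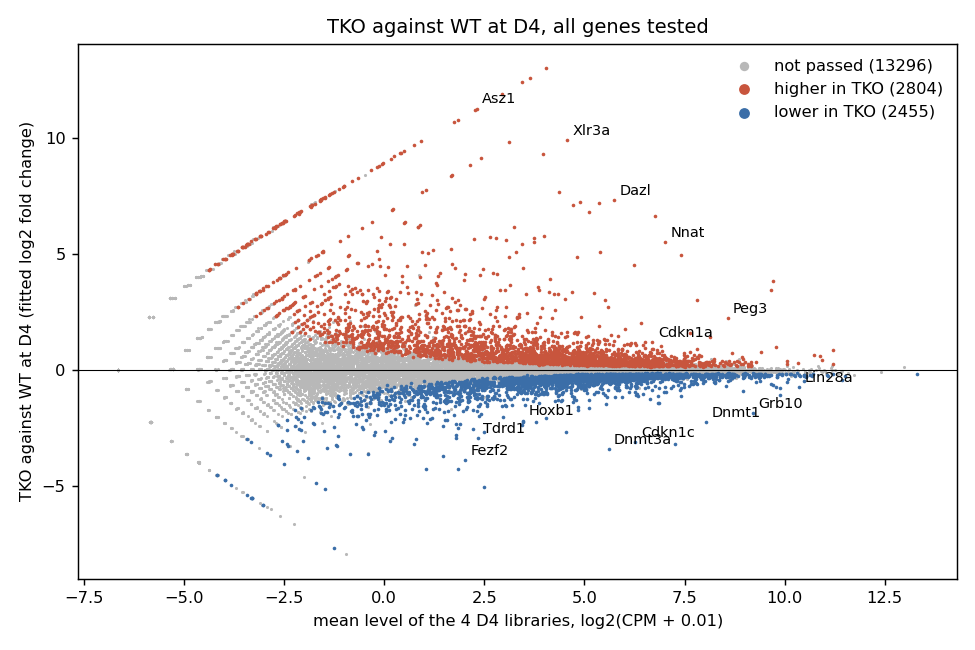
Each point is 1 of the 18555 genes tested, with the mean level of the 4 D4 libraries on the horizontal axis (log2 of CPM plus 0.01) and the fitted log2 fold change of TKO against WT on the vertical axis. The 2804 genes called higher reach far larger fold changes than the 2455 called lower, and the slanted rows of points at the left are genes with 0 or a few counts in a group, whose fitted values are not bounds.

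Markers of an early neural stage were present in both genotypes. Sox1, the first marker of neuroectoderm, stood at 514 and 531 CPM in WT against 507 and 491 in TKO, and Cdh2, the cadherin of neural cells, at 378 and 386 CPM in WT against 347 and 363 in TKO. Pou5f1, the core pluripotency factor, stood at 74 and 81.3 CPM in WT against 107 and 81.1 in TKO, beside 1312 ± 39.3 CPM (SD, n = 2) in WT stem cells at D0. None of these 3 genes passed the test between genotypes at D4 (log2 fold changes of -0.07 ± 0.09, -0.11 ± 0.05 and 0.27 ± 0.22). The 8 neuroectoderm markers summed to 1544 to 1595 CPM in WT and 1461 to 1487 CPM in TKO. Of these 8, 1 was higher, 4 were lower and 3 did not pass (62.5% called, beside 28.3% of all genes). Neuron markers summed to 342 and 357 CPM in WT against 257 and 246 in TKO. Yet of these 7 genes 4 were higher and only 1, Stmn2, was lower, with a median log2 fold change of 0.38. Pluripotent stem cell markers summed to 165 and 160.1 CPM in WT against 236 and 178 in TKO. Epiblast markers summed to 121 and 149.6 CPM in WT against 116 and 98 in TKO. The 6 mesoderm markers summed to at most 6.29 CPM, the 5 trophoblast markers to at most 5.58 CPM and the 3 surface ectoderm markers to at most 1.39 CPM in a library. The 7 endoderm markers summed to 10.4 and 12.1 CPM in WT against 24.3 and 28.5 in TKO. In these bulk samples, more cells of a type and more RNA per cell cannot be told apart.

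The labels name no targeted gene, so no gene could serve as a check of the TKO label, but the DNA methyltransferases Dnmt1, Dnmt3a and Dnmt3b were lower in TKO. Dnmt1, the maintenance enzyme, stood at 417 and 449 CPM in WT against 85.6 and 96.6 in TKO, a log2 fold change of -2.25 ± 0.09 (adjusted p = 2.96e-12). Dnmt3a stood at 92.3 and 85.6 CPM in WT against 7.86 and 8.88 in TKO (-3.41 ± 0.08, adjusted p = 7.06e-15). Dnmt3b stood at 268 and 281 CPM in WT against 32.5 and 28 in TKO (-3.18 ± 0.13, adjusted p = 5.27e-12). The TKO libraries lay far below the WT libraries for each, yet none of the 3 was at 0. Dnmt3b shares 13.5% of its 31-mers with transcripts of other genes, so that its level is uncertain, and within it the transcript ENSMUST00000103151.7 held 6.34% and 9.56% of the counts in WT and 34% and 37.8% in TKO. Whether the RNA that is left in TKO encodes active enzymes was not measured.

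Of the 18 genes of the methylation machinery tested, 6 were higher, 5 lower and 7 did not pass. Uhrf1 stood at 437 and 441 CPM in WT against 509 and 528 in TKO (0.24 ± 0.06), and shares 24.2% of its 31-mers, which leaves it uncertain. Tet1, an enzyme that oxidises methylcytosine, stood at 66.4 and 68.5 CPM in WT against 82.4 and 84.2 in TKO (0.30 ± 0.08). Tet2 stood at 10.3 and 11.7 CPM in WT against 13 and 16.2 in TKO (0.40 ± 0.12), and Tet3 did not pass, at 94.7 and 105 CPM in WT against 96.2 and 98.4 in TKO. Dnmt3l, a cofactor of Dnmt3a and Dnmt3b without catalytic activity, stood at 7.19 and 9.07 CPM in WT against 17.9 and 12.9 in TKO (0.93 ± 0.22). Each of these 4 calls was lost when some single library was left out. The adjusted p of Tet1 was 0.0645 without WT replicate 1 and 0.0631 without TKO replicate 2, that of Tet2 0.179 without WT replicate 1 and 0.281 without TKO replicate 2, that of Dnmt3l 0.0528 without WT replicate 1 and 0.0792 without TKO replicate 1 and that of Uhrf1 0.0696 without TKO replicate 2. The number of higher members was 2 without WT replicate 1, 3 without TKO replicate 1 and 2 without TKO replicate 2, and that of lower members 3 without TKO replicate 2.

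Genes of the germline known to be silenced by methylation were higher in TKO more often than lower. Of 39 listed, 38 passed the filter on low counts and were tested, of which 28 were higher, 6 lower and 4 did not pass, with a median log2 fold change of 2.03 beside 0.00 over all genes. The regions before the start of 4 of them and of the X-linked gene Xlr3a are shown because their CpG content differs while 4 of the genes share a large gain in TKO and Tdrd1 went the other way. Each is the 250 bases before the RefSeq transcription start of assembly GRCm38.p6, 5′ to 3′ on the gene's strand, with each CpG in capitals.
Dazl: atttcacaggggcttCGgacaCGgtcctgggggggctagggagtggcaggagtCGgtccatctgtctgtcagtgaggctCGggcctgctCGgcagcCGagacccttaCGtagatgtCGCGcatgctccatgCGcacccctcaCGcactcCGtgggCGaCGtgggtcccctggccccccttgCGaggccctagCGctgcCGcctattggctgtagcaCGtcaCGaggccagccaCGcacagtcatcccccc
Asz1: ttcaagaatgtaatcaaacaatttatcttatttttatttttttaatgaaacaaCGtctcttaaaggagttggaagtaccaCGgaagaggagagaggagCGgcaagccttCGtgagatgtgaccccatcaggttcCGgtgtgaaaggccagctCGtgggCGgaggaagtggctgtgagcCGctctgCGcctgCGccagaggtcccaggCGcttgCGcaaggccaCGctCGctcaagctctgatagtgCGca
Slc25a31: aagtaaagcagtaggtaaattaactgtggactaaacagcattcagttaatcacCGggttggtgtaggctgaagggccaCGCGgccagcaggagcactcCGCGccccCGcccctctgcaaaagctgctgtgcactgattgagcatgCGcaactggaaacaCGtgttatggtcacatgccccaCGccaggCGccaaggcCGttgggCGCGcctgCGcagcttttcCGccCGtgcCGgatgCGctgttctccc
Xlr3a: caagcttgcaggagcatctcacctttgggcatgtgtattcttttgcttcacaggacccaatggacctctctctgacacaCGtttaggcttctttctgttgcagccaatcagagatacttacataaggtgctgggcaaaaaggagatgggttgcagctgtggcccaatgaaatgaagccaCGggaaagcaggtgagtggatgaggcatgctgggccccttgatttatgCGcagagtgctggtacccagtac
Tdrd1: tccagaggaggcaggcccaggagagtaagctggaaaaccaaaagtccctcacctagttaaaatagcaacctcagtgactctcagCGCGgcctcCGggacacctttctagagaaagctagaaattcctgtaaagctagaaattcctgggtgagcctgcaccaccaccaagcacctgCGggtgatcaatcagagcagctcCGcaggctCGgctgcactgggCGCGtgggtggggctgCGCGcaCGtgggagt
The window of Dazl, chr17:50293621-50293870 (minus strand), holds 20 CpGs, that of Asz1, chr6:18109062-18109311 (minus strand), 15, and that of Slc25a31, chr3:40708621-40708870 (plus strand), 18. Fewer CpGs lie before Tdrd1, 11 in chr19:56825959-56826208 (plus strand), and only 3 before Xlr3a, in chrX:73097096-73097345 (minus strand). The median over the 11642 such windows matched to tested genes is 15 (quartiles 8 and 22). The motif CACGTG, an E-box that reads the same on both strands and holds a CpG at its centre, occurs at 1 place before Slc25a31, at 1 before Tdrd1 and not in the other 3 windows, and 8.37% of the 11642 windows hold it. No comparison of CpG content between sets of genes is given, because windows could be matched for only 62.7% of the genes tested, and methylation itself was not measured in these libraries.

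Dazl, an RNA-binding protein of germ cells (gene ENSMUSG00000010592.9, GRCm38 chromosome 17, 50279395 to 50293636, minus strand), stood at 0.681 and 0.643 CPM in WT against 97.5 and 115 in TKO, a log2 fold change of 7.32 ± 0.23 (adjusted p = 1.81e-13). Asz1, which acts in piRNA production (GRCm38 chromosome 6, 18050964 to 18109061, minus strand), had 0 counts in both WT libraries and 9.61 and 10.2 CPM in TKO. Against a floor of 3 counts over the WT group, this was at least 219-fold higher. Slc25a31, the germ cell form of the ADP/ATP carrier, stood at 0.207 and 0.153 CPM in WT against 8.46 and 10.2 in TKO (5.66 ± 0.22). The groups did not overlap for any of these 3 genes, nor for 64.4% of all genes tested. Sohlh2, a helix-loop-helix factor of early oocytes and spermatogonia, stood at 1.63 and 2.02 CPM in WT against 54.7 and 53.2 in TKO (4.88 ± 0.14). Fkbp6, which acts in meiosis and piRNA production, stood at 0.622 and 0.398 CPM in WT against 26.7 and 26.1 in TKO (5.68 ± 0.19). Mov10l1, the piRNA helicase, stood at 3.85 and 4.5 CPM in WT against 24.8 and 28.2 in TKO (2.66 ± 0.19), so that WT cells at D4 still held some of its RNA.

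The 6 lower members went against the rest of the list. Tdrd1, a Tudor protein of the piRNA pathway, was lower in TKO, at 9.47 and 8.3 CPM in WT against 0.944 and 1.35 in TKO (-2.96 ± 0.30, adjusted p = 1.41e-06). Meioc, which holds germ cells in meiotic prophase, was also lower, at 13.1 and 11.4 CPM in WT against 4.29 and 3.9 in TKO (-1.58 ± 0.14). Sycp3, a part of the synaptonemal complex, was lower, at 7.22 and 4.99 CPM in WT against 1 and 0.694 in TKO (-2.83 ± 0.25), and is uncertain because it shares 46.5% of its 31-mers. Mei1 was lower from under 1 CPM (-3.35 ± 0.72). The remaining lower members, Rnf17 and Rec8, lost their calls when a library was left out, with adjusted p of 0.0862 without WT replicate 2, 0.0548 without TKO replicate 1 and 0.084 without TKO replicate 2 for Rnf17 and 0.737 without WT replicate 1, 0.0821 without TKO replicate 1 and 0.215 without TKO replicate 2 for Rec8. Ddx4, the germ cell helicase also known as Vasa, was close in both genotypes, at 28.9 and 26.2 CPM in WT against 35.4 and 35 in TKO (0.35 ± 0.13), and its adjusted p of 0.0448 rose above 0.05 when any of the 4 libraries was left out (0.0677 without WT replicate 1, 0.228 without WT replicate 2, 0.157 without TKO replicate 1 and 0.143 without TKO replicate 2).

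Families of genes on the X chromosome that are expressed mainly in testis, ovary or placenta had the largest median difference of the 38 lists. Of the 31 Xlr, Rhox and Mage genes found in the files, 23 passed the filter on low counts, which members that are high in TKO alone could pass. Of these, 20 were higher and none lower, with a median log2 fold change of 7.10, or 4.57 when genes with 0 counts in WT are set at their lower bound. Xlr3a stood at 0.0592 and 0.0306 CPM in WT against 46.5 and 48 in TKO, a ratio of 1045 (95% counting interval 357 to 5068). Xlr4a and Xlr4c had 0 counts in WT. In TKO, Xlr4a stood at 14.5 and 16.4 CPM (at least 341-fold higher) and Xlr4c at 8.66 and 10.5 CPM (at least 210.4-fold higher). The Xlr genes share from 58.2% to 94.5% of their 31-mers with other transcripts, so how the reads divide among them is uncertain. Rhox13, a reproductive homeobox gene, has no such overlap and stood at 0.178 and 0.337 CPM in WT against 6.95 and 5.35 in TKO (4.57 ± 0.32). Nxf3, an X-linked RNA export factor, also shares none and stood at 0.74 and 0.368 CPM in WT against 82.8 and 80 in TKO (7.18 ± 0.17). It closes the 12 genes with the highest fold changes when genes with predicted, clone or accession-like names are left out.

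The X chromosome held a larger share of higher genes than any autosome. Of 734 X-linked genes tested, 220 (30%) were higher and 63 (8.58%) lower, and 101 (13.8%) were at least 4-fold higher. On the autosomes, the share at least 4-fold higher ran from 1.37% to 3.7%. The X-linked families above are part of this count. Of 22 genes tested on the Y chromosome, 6 (27.3%) were higher and none lower, and 4 (18.2%) were at least 4-fold higher. The 6 were all among the 7 members tested of the list of Y-linked genes. They include Kdm5d, a histone demethylase, at 2.1 and 2.24 CPM in WT against 33 and 33.2 in TKO (3.93 ± 0.11). Ddx3y, an RNA helicase, stood at 14.8 and 12 CPM in WT against 39.4 and 42.3 in TKO (1.61 ± 0.11).

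**Figure D2:**
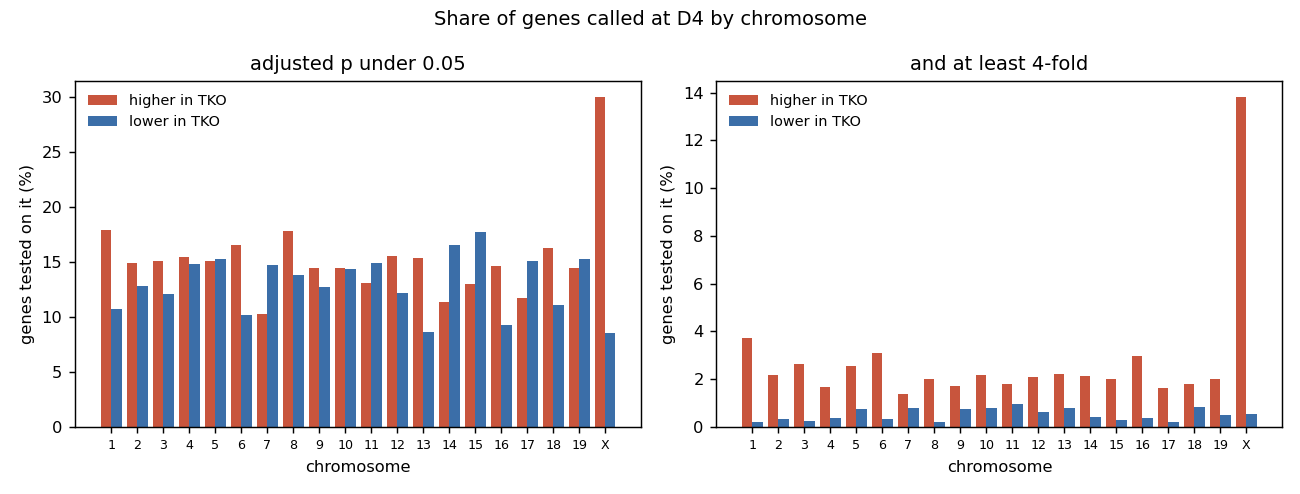
Bars give the share of the genes tested on each autosome and on the X chromosome that were higher or lower in TKO at D4, in percent, at an adjusted p under 0.05 (left) and with a change of at least 4-fold as well (right). The bar of the X chromosome is the highest shown in both panels, with 30% and 13.8%.

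Genes that were off in WT and on in TKO numbered 26, with off taken as under 0.5 CPM and on as at least 5 CPM in both libraries. Of these, 17 lie on the X chromosome, 10 have only predicted or clone names and 16 share at least 10% of their 31-mers. In TKO, 13 were on at D0, 21 at D2, 22 at D6 and 25 at D8, while in WT 2 were on at D0 and 1 at D2. Tktl2, a transketolase-like gene, had 0 counts in WT. Its level in TKO, 7.01 and 6.37 CPM, was at least 149-fold higher. The reverse held for a single gene, H2-Q6, of the major histocompatibility class I region, at 7.1 and 6.56 CPM in WT against 0.372 and 0.33 in TKO, which shares 51.8% of its 31-mers and is uncertain.

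Imprinted genes expressed from the paternal copy were higher more often than lower, and those expressed from the maternal copy lower more often than higher. Of 25 paternally expressed genes tested, 15 were higher and 1 lower (median log2 fold change 0.63), and of 15 maternally expressed genes 3 were higher and 7 lower (median -0.43). Plagl1, a zinc finger regulator of growth, stood at 2.75 and 1.56 CPM in WT against 212 and 217 in TKO (6.63 ± 0.18). Nnat, a membrane proteolipid of neural cells, stood at 4.82 and 6.34 CPM in WT against 247 and 260.1 in TKO (5.51 ± 0.14). Peg3, a zinc finger gene, stood at 128 and 141 CPM in WT against 610.1 and 647 in TKO (2.22 ± 0.14), and its neighbour Usp29 at 4.88 and 4.6 CPM in WT against 14.3 and 13.7 in TKO (1.56 ± 0.13). The abundant genes Peg10, of retroviral origin, and Mest each rose by less than 2-fold, Peg10 at 555 and 634 CPM in WT against 1142 and 1205 in TKO (0.98 ± 0.08) and Mest at 1722 and 1635 CPM in WT against 3028 and 3052 in TKO (0.86 ± 0.06), where Mest is uncertain with 22% of its 31-mers shared. Zdbf2 and Igf2, also paternally expressed, did not pass, at 208 and 189.5 CPM in WT against 139 and 163 in TKO for Zdbf2 and 93.4 and 97.3 CPM in WT against 74.4 and 70.6 in TKO for Igf2. Igf2 shares 61.9% of its 31-mers and is uncertain.

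On the maternal side, 4 genes known to restrain growth were lower. Cdkn1c, an inhibitor of cyclin-dependent kinases, stood at 152 and 126 CPM in WT against 15.7 and 16 in TKO (-3.13 ± 0.10, adjusted p = 1.46e-13). Grb10, an adaptor that dampens insulin receptor signalling, stood at 905 and 967 CPM in WT against 264 and 246 in TKO (-1.88 ± 0.12). Igf2r, the receptor that clears Igf2, stood at 175 and 161 CPM in WT against 59.6 and 64.1 in TKO (-1.44 ± 0.10). Phlda2, a brake on placental growth, stood at 10.9 and 14.2 CPM in WT against 3.32 and 2.71 in TKO (-2.05 ± 0.15). Cd81, a tetraspanin, was among the 3 higher genes, at 141 and 143 CPM in WT against 182 and 173 in TKO (0.32 ± 0.06), and the other two, Ascl2 and Ube3a, lost their calls when a library was left out. The number of higher maternal genes was 1 without TKO replicate 2, and that of lower paternal genes 0 without WT replicate 2 and 0 without TKO replicate 1. Which parental copy the RNA came from was not measured.

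Pluripotency genes did not move together at D4. Of 18 naive pluripotency genes tested, 5 were higher and 2 lower, and the core list of 15 had 3 higher and 6 lower members. Of the naive list 38.9% was called and of the core list 60%, beside 28.3% of all genes. Nanog, a factor of the naive state, stood at 22.9 and 15.8 CPM in WT against 45.3 and 34.2 in TKO (1.04 ± 0.19). Klf4 stood at 4.59 and 3.98 CPM in WT against 8.41 and 8.42 in TKO (0.97 ± 0.15). Nanog shares 10.6% of its 31-mers and Zfp42 13.4%, so both are uncertain. Zfp42, another naive marker, did not pass, at 14 and 13.6 CPM in WT against 13.4 and 10.8 in TKO, and neither did Fgf5, the formative marker, at 1.15 and 1.04 CPM in WT against 1.32 and 0.859 in TKO, nor Otx2, at 4.88 and 4.01 CPM in WT against 3.72 and 2.84 in TKO. Lin28a, an RNA-binding protein that blocks maturation of let-7, was lower, at 1670.4 and 1647 CPM in WT against 999.6 and 978 in TKO (-0.75 ± 0.10), as was Sox2, shared by pluripotent and neural cells, at 232 and 213 CPM in WT against 131 and 137 in TKO (-0.73 ± 0.06). The naive count was 3 without WT replicate 1 and 3 without WT replicate 2 for higher genes and 1 without TKO replicate 1 for lower ones, and the count of higher core genes was 0 without WT replicate 1 and 0 without TKO replicate 1.

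Early neuroectoderm genes were lower more often than higher. Of 32 tested, 13 were lower and 7 higher, with a median log2 fold change of -0.23. Of the 13 falls, all but those of Zic1 and Fezf2 were under 2-fold. Sox21, a repressor of progenitor fate, stood at 174 and 191 CPM in WT against 111 and 101 in TKO (-0.78 ± 0.06). Zic2, a zinc finger factor of the neural plate, stood at 113 and 114 CPM in WT against 80 and 74.2 in TKO (-0.56 ± 0.07). Pax6 stood at 140.5 and 149 CPM in WT against 116 and 121 in TKO (-0.28 ± 0.06). Zic1 fell by more, at 27.1 and 27.8 CPM in WT against 11.1 and 10.7 in TKO (-1.33 ± 0.16). In the other direction, Nes, an intermediate filament of neural progenitors, stood at 168 and 199 CPM in WT against 279 and 289 in TKO (0.63 ± 0.08). Pou3f3 stood at 8.2 and 8.03 CPM in WT against 20.4 and 22.6 in TKO (1.40 ± 0.18) and Fabp7, a fatty acid binding protein of radial glia, at 7.22 and 9.34 CPM in WT against 17.9 and 18.9 in TKO (1.15 ± 0.20). The higher count was 4 without TKO replicate 2.

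Among genes of position along the neural tube, hindbrain and Hox genes were lower more often than higher, and anterior genes passed about as often as all genes did. Of 26 hindbrain, spinal and Hox genes tested, 11 were lower and 3 higher, and of 21 forebrain and midbrain genes 5 were higher and 1 lower, the remaining 15 not passing. The share called was 53.8% in the first list and 28.6% in the second, beside 28.3% of all genes, and the lists were not tested against each other. Hoxb1, which marks the fourth segment of the hindbrain (GRCm38 chromosome 11, 96365752 to 96368256, plus strand), stood at 15 and 21.4 CPM in WT against 4 and 3.9 in TKO (-2.20 ± 0.22, adjusted p = 8.71e-07). Hoxb2 stood at 40.5 and 47.2 CPM in WT against 13 and 13.8 in TKO (-1.72 ± 0.13) and Hoxa2 at 37.3 and 41 CPM in WT against 15.9 and 16.3 in TKO (-1.28 ± 0.11). In these 3 genes, both TKO libraries lay under WT by more than 2-fold, though Hoxa2 shares 13.7% of its 31-mers and is uncertain. Egr2, which defines the third and the fifth segment, stood at 2.96 and 7.26 CPM in WT against 0.372 and 0.396 in TKO (-3.72 ± 0.50), with WT libraries that differed from each other by more than 2-fold. Smaller falls were seen in Hoxb3 (-1.03 ± 0.13), Meis2 (-0.71 ± 0.10) and Gbx2 (-0.58 ± 0.09), while Meis1, a cofactor of Hox proteins, did not pass, at 55.6 and 59.5 CPM in WT against 56.8 and 53.9 in TKO.

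Of the 6 anterior genes that passed, all but Fezf2 were higher. Lhx2, of the eye field and cortex, stood at 3.37 and 3.62 CPM in WT against 9.26 and 10.9 in TKO (1.52 ± 0.17). Dmrta2 stood at 10.6 and 8.95 CPM in WT against 19 and 18.2 in TKO (0.93 ± 0.17). En2, of the midbrain and its border with the hindbrain, stood at 3.73 and 3.4 CPM in WT against 16.4 and 18 in TKO (2.27 ± 0.12). Fezf2, also a forebrain gene, stood at 7.81 and 7.38 CPM in WT against 0.515 and 0.495 in TKO (-3.90 ± 0.30). The 3 higher Hox genes, Hoxb8, Hoxc4 and Hoxc5, lay at or under 2.06 CPM in every D4 library, and their count was 1 without WT replicate 2 and 1 without TKO replicate 1.

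**Figure D3:**
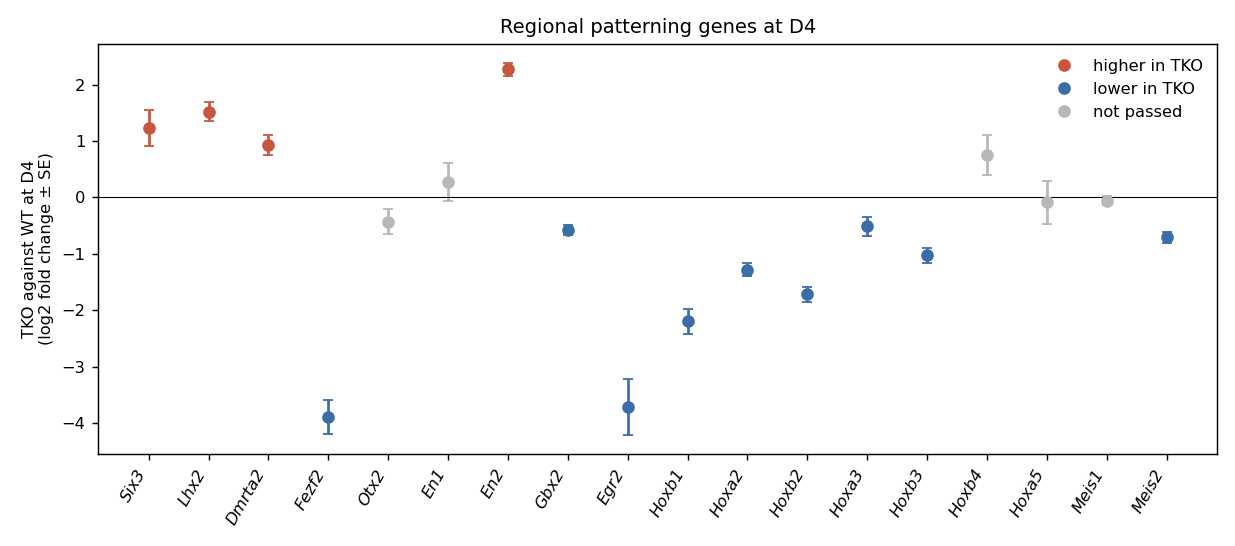
Log2 fold change of TKO against WT at D4 (points, ± SE) for a selection of patterning genes with at least 1 CPM in a group, set out roughly from forebrain at the left to hindbrain and Hox genes at the right. Points above 0 lie mostly at the left and points below 0 mostly from Gbx2 rightward, while Fezf2 at -3.90 is the lowest of those shown. The selection leaves out Hoxb8, Hoxc4 and Hoxc5, the Hox genes that were called higher, so the picture depends in part on the genes chosen.

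Along the other axis of the neural tube, 5 of 21 dorsoventral genes were higher and 5 lower. Of this list 47.6% was called and of the Hedgehog list 43.8%, beside 28.3% of all genes. Pax3, a dorsal gene, stood at 6.3 and 9.13 CPM in WT against 1.83 and 2.74 in TKO (-1.77 ± 0.23), and the ventral genes Nkx2-9 and Nkx6-2 stood at 1.81 and 1.5 CPM in WT against 5.75 and 6.67 in TKO (1.90 ± 0.22) and 9.97 and 8.46 CPM in WT against 17.1 and 16.4 in TKO (0.86 ± 0.17), where Nkx6-2 shares 11.6% of its 31-mers. Among Hedgehog pathway genes, which set ventral identity, Ptch1, the receptor and a target of the pathway, stood at 137 and 135 CPM in WT against 215 and 235 in TKO (0.73 ± 0.09), and the target Gli1 at 16.5 and 19.6 CPM in WT against 25.9 and 25.7 in TKO (0.52 ± 0.12), where the adjusted p of Gli1 was 0.0684 without WT replicate 1. Of 16 Hedgehog genes tested, 4 were higher and 3 lower, but the higher count was 1 without WT replicate 1, 2 without TKO replicate 1 and 2 without TKO replicate 2, and the lower one 1 without WT replicate 2 and 1 without TKO replicate 1. The dorsoventral counts moved too, the higher one to 3 without WT replicate 1 and the lower one to 2 without WT replicate 2, 3 without TKO replicate 1 and 3 without TKO replicate 2.

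Neuronal genes were higher more often than lower. Of 34 proneural and early neuron genes tested, 19 were higher and 4 lower, with a median log2 fold change of 0.97. Nefm, a neurofilament subunit, stood at 4.71 and 4.41 CPM in WT against 46.5 and 47.8 in TKO (3.37 ± 0.17), and is uncertain because over 10% of its 31-mers are shared. Elavl4, an RNA-binding protein of neurons, stood at 11 and 6.92 CPM in WT against 26.5 and 28.7 in TKO (1.62 ± 0.15). Pou4f1, a homeobox gene of sensory neurons, stood at 15.2 and 17.5 CPM in WT against 34.6 and 38.4 in TKO (1.16 ± 0.10). Dcx, a microtubule protein of migrating neurons, stood at 0.622 and 0.919 CPM in WT against 3.32 and 4.23 in TKO (2.28 ± 0.32). Map2, of dendrites, stood at 10.4 and 9.99 CPM in WT against 21.2 and 21.7 in TKO (1.07 ± 0.13). The most abundant members did not share this direction. Tubb3, the tubulin of neurons, did not pass, at 69 and 80 CPM in WT against 67.7 and 64.8 in TKO, and Stmn2, a regulator of microtubules in growing axons, was lower, at 232 and 235 CPM in WT against 112 and 99.5 in TKO (-1.14 ± 0.09). The summed level of the whole list was close between genotypes, at 534 and 567 CPM in WT against 560.2 and 547 in TKO.

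Notch signalling, which holds neural progenitors back from becoming neurons, had 10 higher and 6 lower genes of 20 tested (80% called). Among the receptors, Notch1 stood at 74.5 and 72.7 CPM in WT against 108 and 113 in TKO (0.59 ± 0.06) and Notch3 at 171 and 166 CPM in WT against 243 and 245 in TKO (0.53 ± 0.10). The targets divided. Nrarp stood at 14.8 and 11.9 CPM in WT against 39.4 and 40.1 in TKO (1.57 ± 0.15) and Hey1 at 5.92 and 4.35 CPM in WT against 12.6 and 12.5 in TKO (1.29 ± 0.16), whereas Hes1 was lower, at 58.6 and 58 CPM in WT against 39.1 and 38.8 in TKO (-0.58 ± 0.08), and Hes5 did not pass, at 22.2 and 20.1 CPM in WT against 21.5 and 24.1 in TKO. Of 32 axon guidance genes, 9 were higher and 12 lower (65.6% called, beside 28.3% of all genes). Robo3, the receptor that lets axons cross the midline, stood at 0.178 and 0.398 CPM in WT against 4.66 and 4.92 in TKO (4.04 ± 0.35). Epha7, an ephrin receptor, stood at 66.2 and 64.6 CPM in WT against 29.8 and 29.3 in TKO (-1.15 ± 0.09). Without TKO replicate 2, 4 guidance genes were higher, and without TKO replicate 1, 6 were lower.

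Endoderm genes were higher in TKO at D4 more often than lower, with a median under those at D0, D2 and D6. Of 25 tested, 13 were higher, 1 was lower and 11 did not pass, with a median log2 fold change of 0.84 at D4 beside 2.99 at D0, 2.88 at D2 and 1.83 at D6. Col4a1 and Col4a2, collagen chains of basement membranes that other cell types also make, were among the most abundant members, at 163 and 146 CPM in WT against 398 and 427 in TKO (1.42 ± 0.19) for Col4a1 and 109 and 91.9 CPM in WT against 288 and 306 in TKO (1.57 ± 0.17) for Col4a2. Cubn, an uptake receptor of visceral endoderm, stood at 2.43 and 1.93 CPM in WT against 13.4 and 15.1 in TKO (2.70 ± 0.41). Sox17, the endoderm factor, stood at 0.178 and 0.214 CPM in WT against 1.43 and 1.78 in TKO (adjusted p = 0.000598). The only lower member, Amn, lost its call when a library was left out (0.101 without WT replicate 1, 0.0663 without WT replicate 2 and 0.199 without TKO replicate 1). The difference between genotypes was smaller at D4 than at D0 for Col4a1 (-3.28 ± 0.27, adjusted p = 2.24e-07), Col4a2 (-2.98 ± 0.24) and Cubn (-2.03 ± 0.58, adjusted p = 0.0187). Over the list, this test of the difference between D4 and D0 gave 13 lower and 1 higher.

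Of 14 neural crest genes, 9 were higher and 2 lower, among them Pax3. Ets1, which acts in cranial crest, stood at 3.26 and 3.8 CPM in WT against 15.2 and 17.8 in TKO (2.22 ± 0.12). Twist1, a factor of mesenchyme, stood at 13.1 and 14.9 CPM in WT against 23 and 22.5 in TKO (0.70 ± 0.11). Of 21 primitive streak and mesoderm genes, 7 were higher and none lower, all at or under 7.06 CPM, while T, the streak marker, did not pass, at 1.81 and 2.94 CPM in WT against 2.72 and 2.34 in TKO. Of 12 endothelial and blood genes, 3 were higher, including Tek, an angiopoietin receptor, at 3.4 and 3.03 CPM in WT against 9.95 and 9.58 in TKO (1.60 ± 0.17). The 4 genes of the 2-cell-like state that were lower, all of the Zscan4 family, lay at or under 0.674 CPM in WT, and their count was 2 without WT replicate 2, 1 without TKO replicate 1 and 2 without TKO replicate 2. Interferon response genes gave 8 higher and 3 lower of 28, with Mx1, an antiviral GTPase, at 1.51 and 1.32 CPM in WT against 6.06 and 6.74 in TKO (2.17 ± 0.18). The interferon counts were unstable, the higher one being 4 without WT replicate 2 and 3 without TKO replicate 1, and the lower one 0 without WT replicate 1, 0 without TKO replicate 1 and 0 without TKO replicate 2. The share called was 78.6% in the neural crest list, 33.3% in the streak and mesoderm list and 25% in the endothelial and blood list. Of 15 genes tested in the 2-cell-like list 26.7% were called, and 39.3% in the interferon list, beside 28.3% of all genes. Whether the genes of these lists come from a few cells of other types was not tested.

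Signalling genes gave mixed counts, with a few large single changes. In the retinoic acid pathway, whose ligand posteriorises the neural tube, 3 of 17 genes were higher and 4 lower. Of that list 41.2% was called, beside 28.3% of all genes. Cyp26b1, an enzyme that breaks retinoic acid down, stood at 29.3 and 38.1 CPM in WT against 133 and 141 in TKO (2.02 ± 0.21). Crabp1, which binds retinoic acid in the cytoplasm, stood at 1151 and 1056 CPM in WT against 643 and 678 in TKO (-0.74 ± 0.09), and the receptor Rara at 33.4 and 41.8 CPM in WT against 27.2 and 26.7 in TKO (-0.48 ± 0.09). Both TKO libraries lay above WT for the first of these genes and below it for the others. Groups did not overlap for 64.4% of all genes tested either. In the Fgf and Mapk pathway, 9 of 29 were higher and 2 lower (37.9% called). The targets Etv4 and Spry4 stood at 3.85 and 4.9 CPM in WT against 15.2 and 12.2 in TKO (1.65 ± 0.31) and 2.93 and 4.26 CPM in WT against 7.55 and 6.9 in TKO (1.01 ± 0.14), while the ligands Fgf15 and Fgf3 were lower, at 64.9 and 71.3 CPM in WT against 24.3 and 24.1 in TKO (-1.49 ± 0.17) and 9.8 and 10.1 CPM in WT against 4.15 and 5.32 in TKO (-1.07 ± 0.15).

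In the Bmp, Nodal and Tgfb pathway, 11 of 31 were higher and 4 lower (48.4% called, beside 28.3% of all genes). Id3, a target of Bmp signalling, stood at 31.1 and 26.9 CPM in WT against 60.3 and 64.2 in TKO (1.10 ± 0.11). Id1 stood at 14.7 and 13.4 CPM in WT against 26 and 25.2 in TKO (0.87 ± 0.09). Lefty2, a Nodal antagonist, stood at 3.2 and 1.13 CPM in WT against 25.2 and 16.6 in TKO (3.27 ± 0.31), with 18.4% of its 31-mers shared. Bmp7, a ligand, was lower, at 28.3 and 24 CPM in WT against 13.2 and 12.6 in TKO (-1.02 ± 0.15). The Wnt pathway had 8 higher and 8 lower of 38 (42.1% called). Wnt8a, a ligand that acts in posterior neural patterning, was lower, at 94.6 and 117 CPM in WT against 53.6 and 46.4 in TKO (-1.08 ± 0.16), as was the secreted antagonist Sfrp1, at 989 and 976 CPM in WT against 622 and 674 in TKO (-0.60 ± 0.06), whereas Wnt7a, a ligand of neural tissue, was higher, at 1.45 and 1.23 CPM in WT against 7.72 and 7.79 in TKO (2.53 ± 0.21).

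Targets of p53 were higher more often than lower. Of 26 p53 target and apoptosis genes tested, 15 were higher and 1 lower, with a median log2 fold change of 0.37 beside 0.00 over all genes. Cdkn1a, the inhibitor that p53 uses to stop the cell cycle, stood at 64 and 63.2 CPM in WT against 145 and 143 in TKO (1.18 ± 0.07, adjusted p = 5.29e-10). Plk2 stood at 21.8 and 24.8 CPM in WT against 57 and 56.4 in TKO (1.28 ± 0.14). Phlda3 stood at 45.2 and 45.4 CPM in WT against 99.7 and 92.2 in TKO (1.08 ± 0.12). Ccng1 stood at 514 and 498 CPM in WT against 833 and 872 in TKO (0.75 ± 0.09) and Mdm2, which marks p53 for degradation, at 103 and 111 CPM in WT against 153 and 151 in TKO (0.51 ± 0.07). In all 5 the groups stood apart by more than the spread between replicates, though the groups also did not overlap for 64.4% of all genes tested. Gadd45a was the lower one, at 38.2 and 38.5 CPM in WT against 25 and 21.9 in TKO (-0.71 ± 0.13), and the lower count was 2 without WT replicate 1 and 2 without TKO replicate 1. The summed level of the list was 2581 and 2615 CPM in WT against 3564 and 3576 in TKO.

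Other inhibitors of the cell cycle moved in both directions, with Cdkn2a, Cdkn2b and Cdkn2c higher and Cdkn1b and Cdkn1c lower. Cdkn2a, the locus of p16 and p19Arf, stood at 9.77 and 10.8 CPM in WT against 51 and 48.7 in TKO (2.28 ± 0.10). Cdkn2b stood at 1.42 and 1.53 CPM in WT against 6.86 and 6.14 in TKO (2.14 ± 0.18) and Cdkn2c at 4.26 and 3.77 CPM in WT against 15.2 and 15 in TKO (1.91 ± 0.14), and Cdkn1c is described with the imprinted genes. Cdkn1b stood at 68.6 and 61.2 CPM in WT against 56.5 and 56.9 in TKO (-0.20 ± 0.07, adjusted p = 0.0468), and its adjusted p was 0.387 without WT replicate 1, 0.167 without TKO replicate 1 and 0.15 without TKO replicate 2. Over the 28 cell cycle genes tested, 7 were higher and 3 lower, and Mki67, a marker of cycling cells, stood at 481 and 519 CPM in WT against 568 and 617 in TKO (0.24 ± 0.07). The adjusted p of Mki67 was 0.113 without WT replicate 1 and 0.142 without TKO replicate 2, and the lower count 1 without TKO replicate 1 and 1 without TKO replicate 2. In glycolysis and hypoxia, 5 of 24 genes were lower and 1 higher, the lower count being 3 without WT replicate 1. The share called was 35.7% in the cell cycle list and 25% in the glycolysis and hypoxia list, beside 28.3% of all genes. Slc2a3, a glucose transporter, stood at 1290.2 and 1089 CPM in WT against 709 and 682 in TKO (-0.77 ± 0.14).

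Among abundant transcripts, the largest gains in CPM were those of Slc38a6, at 112 and 108 CPM in WT against 1506 and 1611 in TKO (3.83 ± 0.13), Mest and Noct, at 135 and 139 CPM in WT against 1409 and 1553 in TKO (3.44 ± 0.11). Slc38a6 encodes an amino acid transporter and Noct a deadenylase-like protein, but most counts fell on a single transcript of each. ENSMUST00000153941.7 held 99.2% and 99.3% of the Slc38a6 counts in TKO, and ENSMUST00000144826.1 held 94.2% and 94.2% of the Noct counts. Of the 31-mers of the Slc38a6 transcript, 62.9% also occur in that of Noct, and 33.7% in that of D10Wsu102e, which itself stood at 1373 and 1300.4 CPM in WT against 2020.2 and 2139.9 in TKO (0.64 ± 0.05). The 3 levels are thus uncertain as levels of separate genes. The largest losses in CPM were in 2 genes with many near copies, of which Eef1a1 shares 48.6% and Gapdh 28.1% of the 31-mers, so both are uncertain. Eef1a1, a translation elongation factor, stood at 10911 and 10749.9 CPM in WT against 9802 and 9444 in TKO (-0.17 ± 0.05), with an adjusted p of 0.0905 without WT replicate 1, 0.0508 without WT replicate 2 and 0.143 without TKO replicate 2. Gapdh, a glycolytic enzyme, stood at 3157 and 3249 CPM in WT against 2410.4 and 2331 in TKO (-0.43 ± 0.08). By fold change, the 12 genes with the lowest fold changes included Thbs4, a matrix protein, at 9.32 and 9.99 CPM in WT against 1.57 and 1.39 in TKO (-2.70 ± 0.28), and Xkrx, at 3.79 and 18 CPM in WT against 0.429 and 0.198 in TKO (-5.06 ± 0.63), whose WT libraries differed from each other by more than 4-fold.

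The D4 difference was then set beside that of other days, with a test of the change in the difference itself. The difference is the log2 fold change of TKO against WT with its sign. A higher or lower difference is thus not always a larger or smaller gap between the genotypes. These tests share the D4 libraries. Against D0, the difference between TKO and WT was higher at D4 for 2216 genes (11.9%) and lower for 1962 (10.6%). Against D2, it was higher for 1412 (7.61%) and lower for 1528 (8.23%), and against D6 higher for 1587 (8.55%) and lower for 1585 (8.54%). Changes of at least 4-fold were mostly in the lower direction against D6, 525 lower (2.83%) beside 89 higher (0.480%). Some of these counts depended on a library. Against D0, 1273 genes were lower without TKO D0 replicate 1 and 1305 without TKO D4 replicate 2. Against D2, 896 were higher without WT D2 replicate 2 and 915 without TKO D4 replicate 2, and against D6 1024 were higher without TKO D4 replicate 2.

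Members of the germline list had a higher difference at D4 than at D0 in 20 of 38 genes and a lower one in 1. Against D6, none was higher and 27 were lower, among them Sycp3, which was lower in TKO at D4 and higher at D6. Dazl stood in WT at 4.98 ± 1.25 CPM at D0, 0.662 ± 0.0264 CPM at D4 and 0.0909 ± 0.129 CPM at D6 (mean ± SD, n = 2), and in TKO at 54.2 ± 6.2, 106 ± 12.3 and 262 ± 42.9 CPM. The difference at D4 was larger than at D0 by 3.87 ± 0.35 and larger than at D2 by 3.87 ± 0.35 on the log2 scale, and smaller than at D6 (-4.06 ± 0.75, adjusted p = 0.00103). Mov10l1 was likewise further apart at D4 than at D0 (2.14 ± 0.27) and less so than at D6 (-5.65 ± 0.49). Smc1b, a meiotic cohesin at 1.54 and 0.797 CPM in WT against 11.2 and 9.41 in TKO, passed neither test (-0.22 ± 0.35 against D0 and 0.16 ± 0.44 against D6).

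Among hindbrain genes, Hoxb1 had its highest mean of the 5 days at D4 in both genotypes, and its difference was lower than at D2 (-3.00 ± 0.53, adjusted p = 0.000848) but did not pass against D6 (-0.46 ± 0.60, adjusted p = 0.678). Hoxb2 was lower in TKO at both D4 and D6, and by less at D4 (change of the difference 1.30 ± 0.18). At D6 it stood at 60.7 ± 0.831 CPM in WT and 7.54 ± 1.94 CPM in TKO. Over the list of hindbrain, spinal and Hox genes, 7 of 26 were lower and 0 higher against D2.

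Many p53 targets had a higher difference at D4 than at D6. Against D6, 15 of 26 were higher and 2 lower, and against D2 8 were higher and 1 lower. Cdkn1a reached 158 ± 10 CPM in WT and 186 ± 4.72 CPM in TKO at D6, and its difference was larger at D4 (0.95 ± 0.09, adjusted p = 1.98e-06). Phlda3 (1.02 ± 0.16) and Ccng1 (0.82 ± 0.13) also passed.

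Many pluripotency genes had a lower difference at D4 than at D6. Against D6, 14 of 18 naive genes had a lower difference at D4 and none a higher one. Of 15 core genes 9 had a lower and 1 a higher difference, and of 20 formative and primed genes 11 and 1. Pou5f1, close in both genotypes at D4, stood at 4.4 ± 1.92 CPM in WT and 49.8 ± 7.88 CPM in TKO at D6, and the difference was lower at D4 than at D6 (-3.21 ± 0.36, adjusted p = 8.52e-06). The epithelial and surface ectoderm list moved in the same way, with 17 of 22 genes lower against D6 and 1 higher, although at D4 itself 4 were higher (2 without WT replicate 2 and 2 without TKO replicate 1) and 2 lower (1 without WT replicate 2 and 1 without TKO replicate 2).

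**Figure D4:**
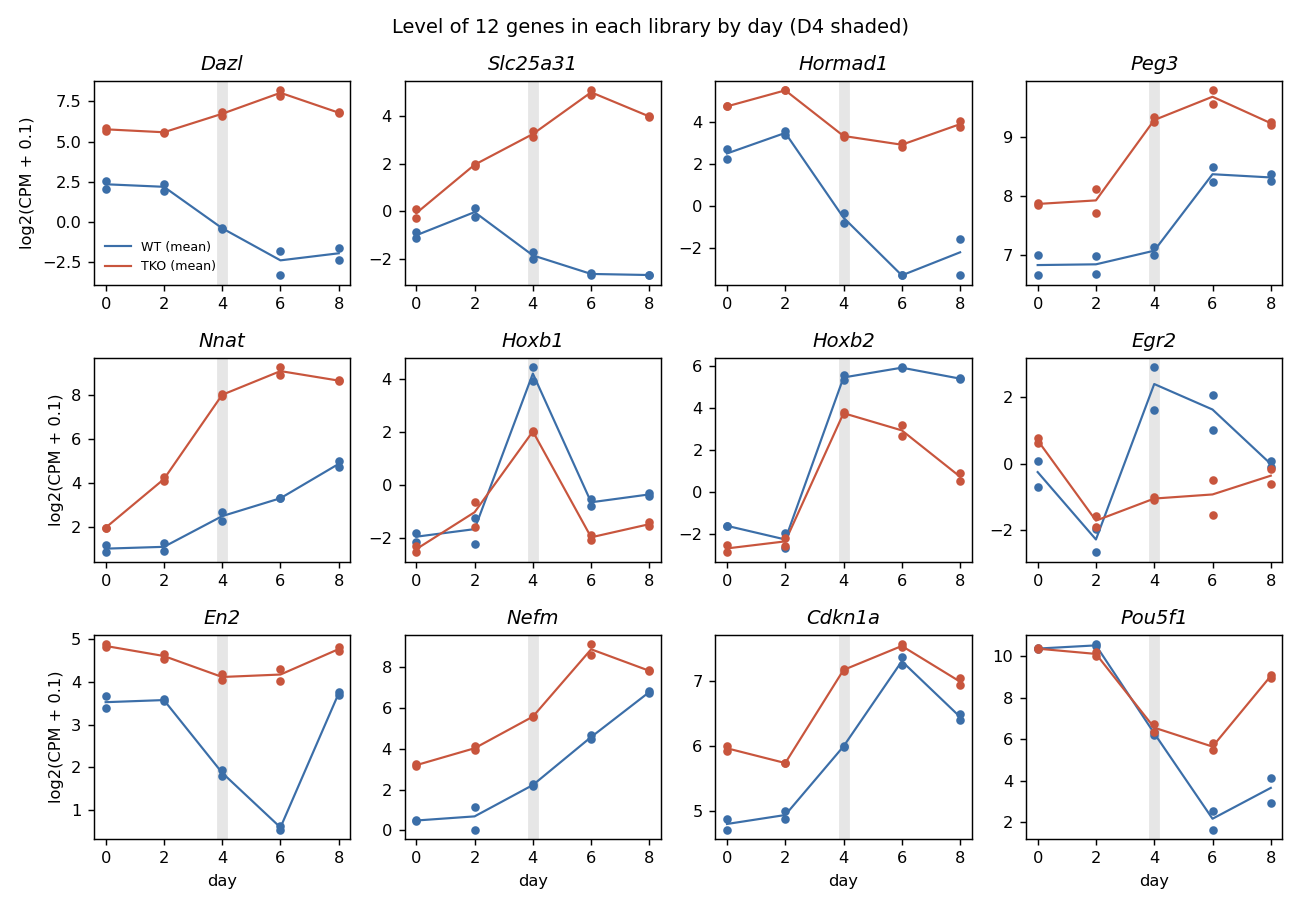
Levels of 12 genes (log2 of CPM plus 0.1) by day, with a point for each library and a line through the group means, blue for WT and red for TKO, and D4 shaded. Both TKO points lie above both WT points at D4 for Dazl, Slc25a31 and Hormad1 and below them for Hoxb1, Hoxb2 and Egr2, and Pou5f1 is close in both genotypes up to D4 and apart at D6 and D8. Groups did not overlap at D4 for 64.4% of all genes tested.

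**Figure D5:**
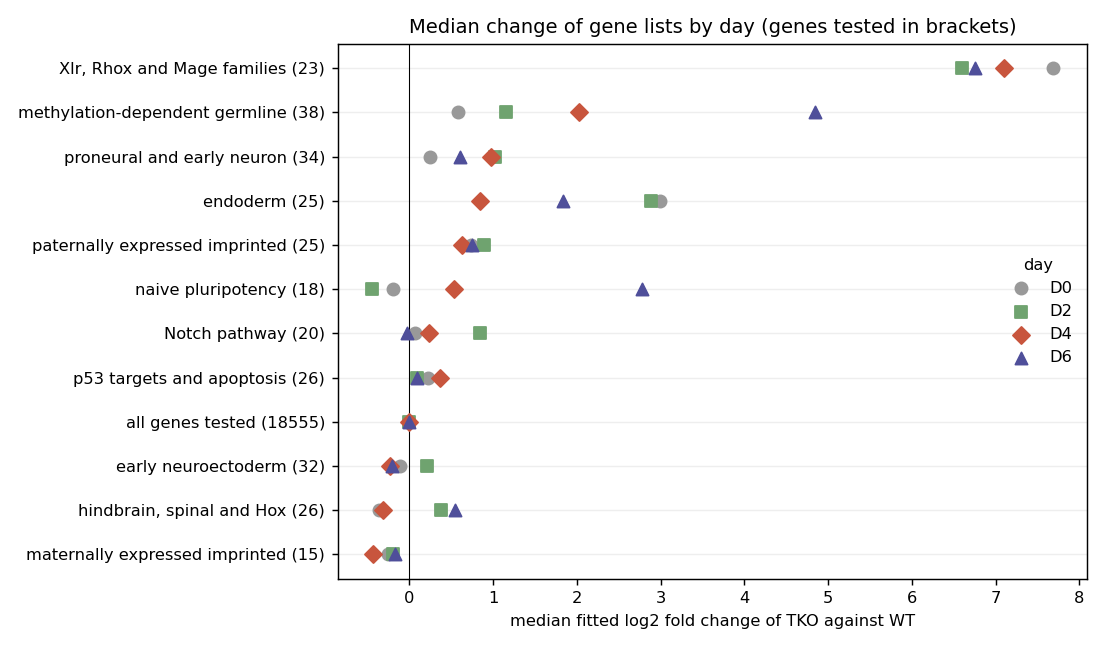
Median fitted log2 fold change of TKO against WT for 12 sets of genes at D0, D2, D4 and D6, with the number of genes tested in brackets. At D4 the germline median (2.03) lies between those of D2 (1.15) and D6 (4.84), and the endoderm median (0.84) lies under those of D0, D2 and D6.

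Among the genes with the most changed differences were some with little or no difference at D4. Against D2, Robo2, an axon guidance receptor, was among the 6 lowest (-4.86 ± 0.83), at 30.5 and 31.3 CPM in WT against 21.2 and 26.9 in TKO at D4 (-0.36 ± 0.11, adjusted p 0.0626 without WT replicate 1, 0.0927 without WT replicate 2 and 0.29 without TKO replicate 1) and 0.0194 ± 0.0274 CPM in WT and 0.466 ± 0.0776 CPM in TKO at D2. Cyp26a1, which breaks down retinoic acid, was among the 6 lowest against D0 (-5.12 ± 0.37) and did not pass at D4, at 6.63 and 6.95 CPM in WT against 5.83 and 5.55 in TKO. Among the highest were Tktl2 against D0 and D2, with 5.83 and 6.31, fitted values that are no bounds because WT had 0 counts at D4, and Wnt7a against D6 (3.20 ± 0.25).

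Genes called at D4 were read at the other days, whose libraries are separate. Of the 2804 genes higher at D4, 45.8% were higher at D0, 53.6% at D2, 58.9% at D6 and 52.4% at D8, beside 19.4%, 18.4%, 20.9% and 35.8% of all genes tested. Of the 2455 lower at D4, 49% were lower at D0, 45.6% at D2, 56.7% at D6 and 48.6% at D8, beside 19.9%, 16.9%, 20.3% and 31.8%. The shares that went the other way at D8 were under those of all genes. Of the genes higher at D4, 28.9% were lower at D8, beside 31.8% of all genes. Of those lower at D4, 29.7% were higher at D8, beside 35.8% of all genes. As a share of the other lists, the genes higher at both D4 and D6 made up 42.5% of those higher at D6, and the genes lower at both 36.9% of those lower at D6.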

How the data were processed

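Polyadenylated RNA of WT and TKO cells at 5 days was made into stranded libraries, per the labels' protocols. The authors deposited, per the file headers, an estimated count, a TPM value, a length and an effective length for each of 119414 transcripts in a library. The submitters' processing notes name Trim Galore 0.6.2, kallisto and GRCm38, and the transcript set and the kallisto version are not given in the sources used here. TPM values deposited by the authors were used only for the alternative with length-scaled counts.

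Transcripts were matched to GENCODE M21 genes (116728 matched, and the 2686 others held 0.943% to 1.1% of a library), and their estimated counts were added up by gene, then rounded. All 20 libraries were fitted with edgeR 4.0.16 (R 4.3.3, quasi-likelihood test, TMM, filterByExpr, 10 groups, 10 residual degrees of freedom, common biological coefficient of variation 0.069), and DESeq2 1.42.0 was an alternative. Totals ran from 26015282 to 38074768 counts, and the 95% intervals and the floor of 3 counts reflect counting error alone. Kallisto divides reads between transcripts that share sequence, so genes with at least 10% of 31-mers shared are called uncertain. Promoters are RefSeq windows within 500 bases of the start of the gene's most counted D4 transcript. On simulated data of 18322 genes for TKO against WT at D4, 59 of 67 seeded 1.5-fold, 66 of 67 2-fold and all 66 4-fold changes were called, with 6 false calls. The seeded genes all stood above 5 CPM in WT at D4, and counts were drawn with the variation estimated in the same fit. Far fewer genes were changed than were called in the data. The simulation thus does not cover genes of lower level or data with so many changes.

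The comparison, the 38 gene lists and the rules for naming genes were chosen with earlier results of these data known. Genes were named if on a fixed list of 23, among the 12 highest or lowest fold changes of at least 5 CPM without overlap (predicted, clone and accession-like names left out), among the 8 largest differences in CPM each way, among the 6 most changed or 2 most abundant unchanged members of a list, or among the 6 highest and lowest of each test between days. Members of a list may also be named where their values are given, and not all genes so ranked are described, since some are not reported here. The alternatives were other scaling, filters, thresholds, gene sets and replicate blocks, and leaving out each library. A fit without D8 was added after the data were seen. When a group was left with 1 library, that library was assumed to vary like the other groups.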

Additional observations from a re-analysis of the deposited data

Results flagged for a closer look

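The difference between TKO and WT differed between days by a direct test for 4178 genes at D4 against D0, 2940 against D2 and 3172 against D6. Among the genes named by fixed rules, 7 were on opposite sides of 0 at 2 days with the change passing the test, and values are log2 changes of the difference ± SE. Tet1 differed by 0.98 ± 0.11 between D4, where it was higher in TKO, and D2, where it was lower, and Tet2 by 0.89 ± 0.16. Nes differed by 0.93 ± 0.11 between D4, where it was higher in TKO, and D6. Scd2, a fatty acid desaturase, stood at 1801 and 1528 CPM in WT against 2234 and 2276 in TKO at D4, with an adjusted p of 0.0251 for the difference that was 0.199 without WT replicate 2, 0.0801 without TKO replicate 1 and 0.105 without TKO replicate 2, and differed by 1.13 ± 0.20 from D6. Sycp3, lower in TKO at D4 and higher at D6, differed by -4.64 ± 0.43, and Slc2a3 by -1.17 ± 0.19. Crabp1, lower in TKO at D4, differed by -1.53 ± 0.14 from D0 and by -1.58 ± 0.14 from D2, where it was higher. The causes were not tested.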

How the results depend on the processing

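The counts of genes higher and lower at D4 stayed within 1.5 times of 2804 and 2455 under DESeq2 (2795 and 1988), relative log expression scaling (3002 and 2194), no low-count filter, protein-coding genes alone, genes under 10% shared 31-mers, the compared groups alone, length-scaled counts and without the D8 libraries (2553 and 2103). An adjusted p under 0.01 left 1856 genes higher and 1380 lower at D4, 1200 and 1051 against D0, 692 and 868 against D2, and 835 and 933 against D6. A change of at least 2-fold left 1029 genes higher and 396 lower at D4, 748 and 579 against D0, 294 and 748 against D2, and 331 and 1060 against D6. Length-scaled counts gave 928 higher against D2 and 990 against D6. Leaving out 1 library at a time gave 1940 to 2192 higher and 1415 to 1807 lower at D4, 1543 to 2467 and 1273 to 2047 against D0, 896 to 1180 and 1067 to 1318 against D2, and 1024 to 1399 and 1161 to 1346 against D6. Genes off in WT and on in TKO numbered 15 with off under 0.2 CPM and 62 with on from 2 CPM, and the reverse 0 and 6. Col1a1, lower in TKO (-0.59), had a log2 fold change of 0.24 with length-scaled counts, and the cause was not tested.

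With the replicate number as a block, 2772 genes were higher and 2428 lower, and with a block within each day 2555 and 2212. Deviations of same-numbered libraries correlated by -0.03 at D4, and by -0.02 to 0.04 at the other days, so no deviation shared by same-numbered libraries was seen. Whether they were grown or prepared together cannot be told from this. Libraries of 1 group differed by more than counting noise (chi-square per degree of freedom 10.71 for WT and 4.52 for TKO at D4).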

Other observations

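Of 30 cadherin and adhesion genes, 6 were higher and 6 lower at D4 (40% called, beside 28.3% of all genes). Cdh6, a cadherin of neural segments, stood at 7.93 and 7.66 CPM in WT against 14.7 and 15.2 in TKO (0.94 ± 0.10). Pcdh8, a protocadherin, stood at 78.3 and 85.9 CPM in WT against 45.4 and 51.8 in TKO (-0.76 ± 0.12). Of 15 mesenchyme genes, 4 were higher and 5 lower: Vim, an intermediate filament of progenitors and mesenchyme, stood at 325 and 293 CPM in WT against 499 and 527 in TKO (0.73 ± 0.08). Tagln, a marker of smooth muscle, stood at 75.7 and 93.9 CPM in WT against 40.1 and 36.2 in TKO (-1.15 ± 0.16) and Fn1, fibronectin, at 358 and 362 CPM in WT against 244 and 252 in TKO (-0.54 ± 0.11). The lower count was 3 without TKO replicate 2. Counts of 5 smaller lists moved when 1 library was left out. The share called was 29.4% in the trophoblast list, 25% in the glia list and 27.3% in the stress response list, near the 28.3% of all genes. The epithelial and surface ectoderm list was also near it at 27.3%. In the mitochondrially encoded list the share was 15.4%, under that of all genes. It was 70% in the formative pluripotency list and 52.9% in the germ cell specification list. The formative pluripotency list had 6 higher and 8 lower of 20 genes, with higher genes at 3 without WT replicate 2 and 3 without TKO replicate 1. The germ cell specification list had 5 higher and 4 lower of 17 genes, with lower genes at 1 without WT replicate 2 and 1 without TKO replicate 2. The trophoblast list had 3 higher and 2 lower of 17 genes, with lower genes at 1 without WT replicate 2, 1 without TKO replicate 1 and 0 without TKO replicate 2. The glia list had 2 higher and 1 lower of 12 genes, with higher genes at 0 without WT replicate 1, 1 without WT replicate 2, 1 without TKO replicate 1 and 1 without TKO replicate 2 and with lower genes at 0 without WT replicate 2 and 0 without TKO replicate 2. The stress response list had 5 higher and 1 lower of 22 genes, with higher genes at 2 without WT replicate 1, 3 without TKO replicate 1 and 3 without TKO replicate 2 and with lower genes at 0 without WT replicate 1, 0 without WT replicate 2 and 0 without TKO replicate 2. Of 13 mitochondrially encoded genes, 2 were higher (1 without WT replicate 1, 1 without TKO replicate 1 and 1 without TKO replicate 2), and these transcripts took 2.095% and 2.364% of the counts in WT and 2.619% and 2.445% in TKO.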
